A study of Mus musculus with 6 samples.

Results

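The genes described here encode the messenger RNA repression and decapping machinery of processing bodies (P-bodies) and the GW182 proteins that link Argonaute to it. They were picked by symbol from the deposited table: Lsm14a, Lsm14b, Ddx6, Dcp1a, Dcp1b, Dcp2, Edc3, Tnrc6a, Tnrc6b and Tnrc6c. All 10 were among its 22731 gene symbols and among the 12599 genes that were tested, which averaged 1 RPKM or more (RPKM, reads per kilobase of gene model after scaling to depth). The choice was made with the difference between the groups known, above all that of Lsm14b. For these 10 genes the group differences are therefore given as a description, and no p-value is given for them.

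The data are 6 RNA sequencing libraries of mouse retina at 4 weeks of age, on a mixed C57BL/6J - SJL background. The 3 conditional knockout libraries (cKO, replicates 2, 3 and 4) came from mice labelled Dicerfl/fl, iCre75+, and the 3 control libraries (replicates 1, 2 and 3) from littermates labelled Dicerfl/fl, iCre75-. Both groups thus carried the floxed alleles of Dicer1, the nuclease that makes microRNAs from their precursors. Only the cKO mice carried iCre75, a transgene in which a rod-specific promoter drives Cre recombinase in rod photoreceptors, so the other cells of the retina keep Dicer1. Each library pooled RNA of 4 mice, and the spread between libraries is that between pools. In whole-retina RNA, fewer cells of a type and less RNA per cell cannot be told apart.

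A microRNA guides Argonaute to a messenger RNA, and Argonaute recruits a TNRC6 (GW182) protein, which in turn docks the deadenylase complexes that shorten the poly(A) tail. DDX6, a helicase, binds the CCR4-NOT complex and hands the messenger to translational repressors such as LSM14 proteins or to the decapping enzyme DCP2. DCP1 and EDC3 activate DCP2, after which the exonuclease XRN1 degrades the body of the message. Much of this machinery gathers in P-bodies.

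The depths by which the RPKM values were scaled, worked back from their steps, lay between 15128203 reads in cKO replicate 4 and 40523119 reads in control replicate 3. The steps cannot tell a library in which every read was counted 2 times from one of smaller depth, so read numbers rest on reads having been counted once. Dicer1 itself was at 8.02, 7.06 and 7.90 RPKM in cKO replicates 2, 3 and 4 and at 8.48, 8.77 and 8.33 RPKM in control replicates 1, 2 and 3, all cKO values below all control values (limma adjusted p = 0.931). A whole-gene value also counts exons outside the deleted part and cells without Cre. Among the 11 marker lists, that of the 8 rod markers had the highest summed RPKM. It lay between 20180 and 22260 in cKO and between 21365 and 24783 in controls. The summed ranges of 10 of the 11 marker lists overlapped between the groups. The exception was the bipolar cell list (5 markers), between 266 and 273 RPKM in cKO and between 224 and 250 RPKM in controls. Lens markers, from tissue that a dissection can carry, lay between 168 and 2522 RPKM over the 6 libraries.

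Lsm14b, which encodes an Sm-like RNA-binding protein that represses translation together with DDX6, was the member with the largest difference. It was at 31.1, 30.2 and 29.0 RPKM in cKO replicates 2, 3 and 4 and at 19.3, 22.0 and 19.8 RPKM in control replicates 1, 2 and 3. Every cKO library thus lay well above every control library, with 7.01 RPKM between the lowest cKO and the highest control value. The means were 30.1 ± 1.02 RPKM in cKO and 20.4 ± 1.44 RPKM in controls (SD, n = 3 each), so cKO was at 148% of control. The fitted difference was 0.55 ± 0.08 (SE) on the log2(RPKM + 0.5) scale, at place 34 of 12599 from the highest. These values rest on between 1113 and 2746 reads per library. The coefficient of variation between libraries was 7.04% in controls and 3.39% in cKO, where counting error alone gives about 2.27% and 2.39%. The difference stayed between 0.52 and 0.61 when each library was left out in turn. The sum of the bipolar cell markers was also higher in every cKO library, and its part in the Lsm14b values was not tested.

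Lsm14a, its closest relative, was the most abundant member and showed no such separation. It was at 50.0, 49.0 and 57.8 RPKM in cKO replicates 2, 3 and 4 and at 52.6, 50.2 and 56.1 RPKM in control replicates 1, 2 and 3, and the groups overlapped fully. The highest value in each group came from the library in which short genes read highest (cKO replicate 4 and control replicate 3). The gene model of Lsm14a, at 2723 bp, is not itself among the short ones (under 1500 bp). It is near the median of 2857 bp over the tested genes. The means were 52.3 ± 4.79 RPKM in cKO and 53.0 ± 2.93 RPKM in controls (SD, n = 3 each), a fitted log2 difference of −0.02 ± 0.10 (SE). Its sign turned without cKO replicate 2, without cKO replicate 3 and without control replicate 3.

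**Figure D1:**
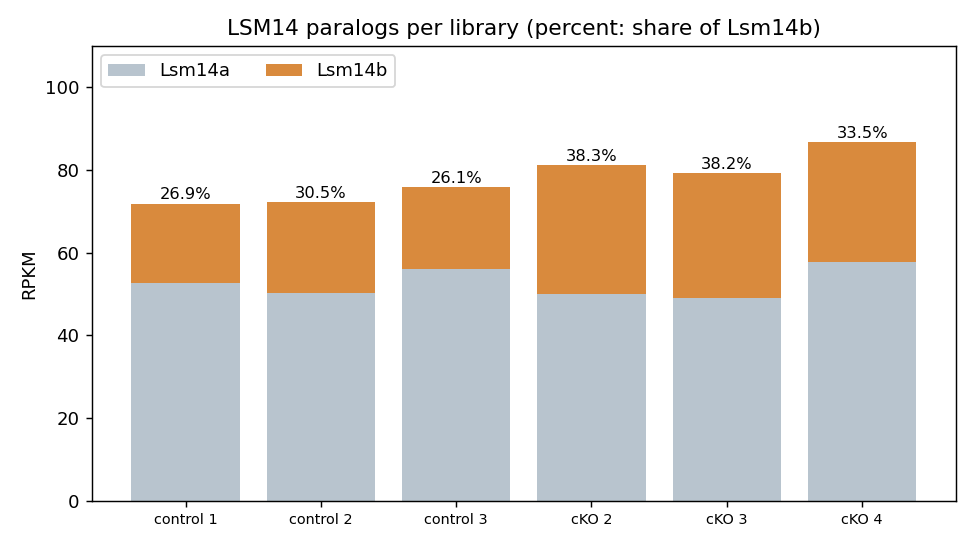
Bars stack the RPKM of Lsm14a (grey) and Lsm14b (orange) in each of the 6 libraries, and the label gives the share of Lsm14b in percent. The Lsm14b part takes between 33.5% and 38.3% of the sum in cKO and between 26.1% and 30.5% in controls, while the Lsm14a part overlaps between the groups.

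Added up, the LSM14 pair was at 81.1, 79.2 and 86.8 RPKM in cKO replicates 2, 3 and 4 and at 72.0, 72.2 and 75.9 RPKM in control replicates 1, 2 and 3. Lsm14b made up 36.6% ± 2.76 of that sum in cKO and 27.8% ± 2.34 in controls (SD, n = 3 each). Both the sum and the share lay higher in every cKO library, as the plot of the stacked paralogs shows. Since Lsm14a overlapped between the groups, both restate the difference of Lsm14b and are not further results.

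Ddx6, the DEAD-box helicase at the centre of these complexes, was at 14.5, 12.6 and 11.2 RPKM in cKO replicates 2, 3 and 4. In control replicates 1, 2 and 3 it was at 14.0, 15.3 and 12.5 RPKM. The groups overlapped, with cKO replicate 2 above 2 of the 3 control libraries. The means were 12.8 ± 1.63 RPKM in cKO and 13.9 ± 1.41 RPKM in controls (SD, n = 3 each), a fitted log2 difference of −0.12 ± 0.12 (SE).

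Of the decapping genes, Dcp2, the catalytic enzyme, had the lowest level of all members. It was at 3.76, 3.73 and 3.46 RPKM in cKO replicates 2, 3 and 4 and at 3.92, 3.96 and 3.79 RPKM in control replicates 1, 2 and 3. Its cKO values all lay below the control values, but by as little as 0.0251 RPKM. The fitted log2 difference was −0.08 ± 0.08 (SE), and −0.03 once each library's trend with gene length was removed, a setting chosen after seeing the data.

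Dcp1a, a DCP2 activator, was at 6.38 ± 0.432 RPKM in cKO and 5.92 ± 0.262 RPKM in controls (SD, n = 3 each), with a fitted log2 difference of 0.10 ± 0.08 (SE). Its paralog Dcp1b was at 5.61 ± 0.518 and 5.13 ± 0.168 RPKM, with a fitted log2 difference of 0.11 ± 0.09 (SE). For both genes the groups overlapped, and cKO replicate 4 held the highest value, 6.79 RPKM of Dcp1a and 6.21 RPKM of Dcp1b. Edc3, a scaffold that enhances decapping, was at 9.49 ± 0.831 RPKM in cKO and 10.1 ± 0.799 RPKM in controls, again with overlapping groups. Edc3 shares 1284 annotated exon bases with Clk3 on the opposite strand. The reads carry no strand, and Clk3 was higher, between 29.2 and 39.9 RPKM, so reads from the shared bases cannot be assigned to either gene. Lsm14a shares 344 annotated exon bases with Gm12764 and 110 with 2310043P16Rik, both on the opposite strand. Tnrc6a shares 143 with Gm45846 and Tnrc6b 82 with Mir5113, both on the same strand. No values were at hand for these overlapping genes.

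The 3 TNRC6 genes, whose proteins bridge Argonaute and the deadenylases, each gave values that overlapped between the groups. Tnrc6a was at 13.9, 13.9 and 15.2 RPKM in cKO replicates 2, 3 and 4 and at 15.0, 14.7 and 13.9 RPKM in control replicates 1, 2 and 3. Tnrc6b was at 10.9, 8.48 and 8.75 RPKM in these cKO libraries and at 11.0, 11.2 and 8.29 RPKM in these controls. Tnrc6c was at 16.7, 15.3 and 14.7 RPKM in cKO and at 17.4, 17.8 and 15.6 RPKM in controls. Tnrc6b had the widest spread within a group, a coefficient of variation of 16.0% in controls and 14.1% in cKO. The fitted log2 differences were −0.02 ± 0.08, −0.11 ± 0.14 and −0.12 ± 0.09 (SE) for Tnrc6a, Tnrc6b and Tnrc6c. The sign turned for Tnrc6a (0.03) and Tnrc6b (0.04) when the trend with gene length was removed, and for Tnrc6a also without cKO replicate 2, cKO replicate 3 or control replicate 1. Summed, the family was at 39.3 ± 1.96 RPKM in cKO and 41.6 ± 3.28 RPKM in controls.

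**Figure D2:**
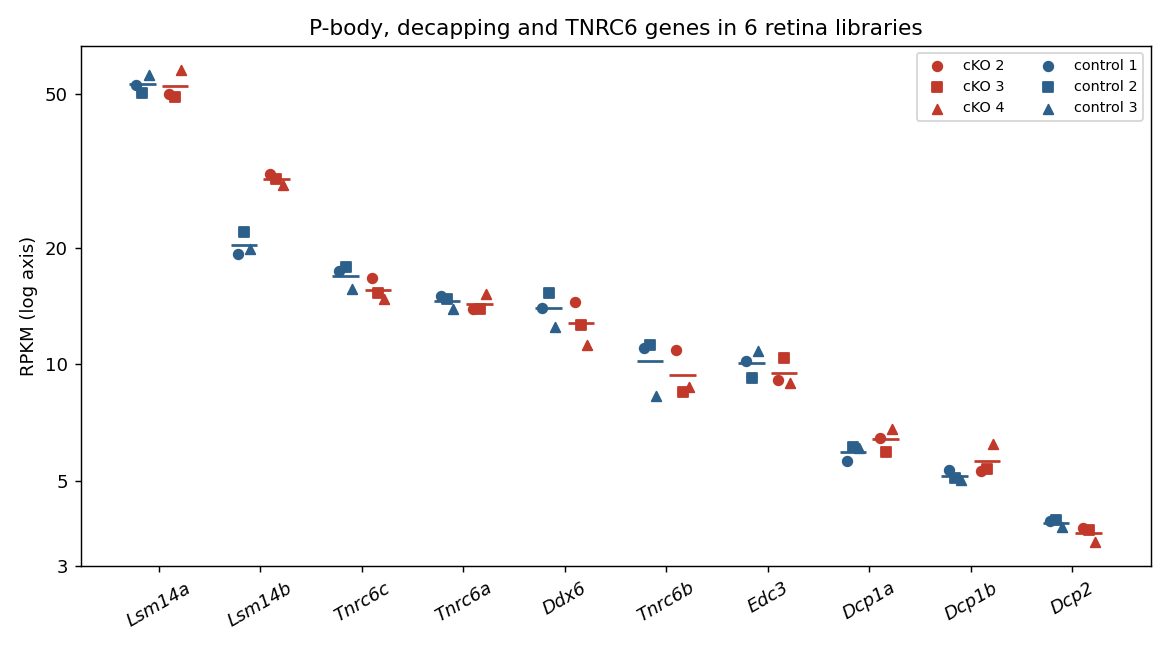
Points give the RPKM of each member (log axis) in the 3 control libraries (blue) and the 3 cKO libraries (red), and short lines the group means. Members are in the order of their control mean, from Lsm14a at 53.0 RPKM to Dcp2 at 3.89 RPKM, and Lsm14b is the member whose groups stand clearly apart.

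Over the 10 members, the mean log2 value in cKO was above control for 3 and below it for 7, with a median log2 difference of −0.051 against −0.005 for all tested genes. Without Lsm14b the other 9 had a median of −0.081 and lay between −0.12 and 0.11. With each library's trend with gene length removed, a setting chosen after seeing the data, the medians of the 10 and of the 9 were 0.002 and −0.028. The groups did not overlap for 2 of 10 members, against 11.7% of all tested genes. Lsm14b was the 1 member with all cKO values above all control values (5.91% of all tested genes), and Dcp2 the 1 member with all of them below (5.78%). These counts use the contrast on which the members were chosen, and nothing is read from them. The single gene of the whole table past an adjusted p of 0.05 in limma was Prm1, the sperm protamine gene. It was at 787, 818 and 1137 RPKM in cKO replicates 2, 3 and 4 and at most 0.385 RPKM in the controls. The cKO mice differed from the controls in carrying the iCre75 transgene as well as in the deletion. Whether the Prm1 reads came from the native gene or from the transgene was not tested.

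**Figure D3:**
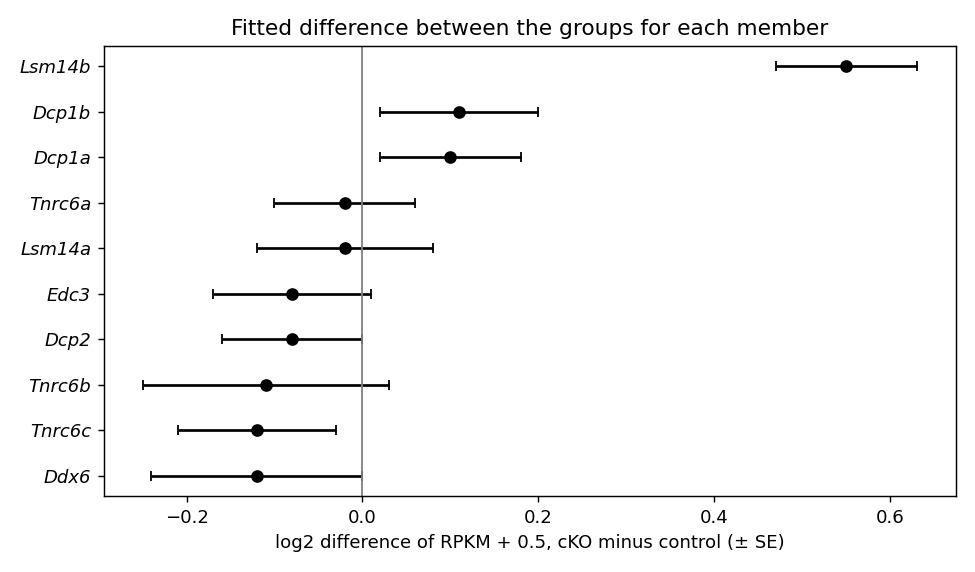
Points give the fitted log2 difference, cKO minus control, of each member on the log2(RPKM + 0.5) scale, and bars its standard error. Lsm14b lies at 0.55, and the other 9 members lie between −0.12 and 0.11, near the zero line.

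Since RPKM is scaled to length, the levels of the members can be set in order within the control libraries. Lsm14a came first with 53.0 RPKM, then Lsm14b with 20.4, Tnrc6c with 16.9, Tnrc6a with 14.5, Ddx6 with 13.9, Tnrc6b with 10.2, Edc3 with 10.1, Dcp1a with 5.92, Dcp1b with 5.13 and Dcp2 with 3.89 RPKM. The control ranges of neighbours in that order overlapped for Tnrc6a and Ddx6 and for Tnrc6b and Edc3, and were apart for the other 7 neighbouring pairs. In cKO the order was the same but for Tnrc6b and Edc3, which changed places within their spread. The decapping enzyme and its DCP1 partners thus stood at the low end in both groups. This order depends on the gene models. The recovered lengths of Lsm14b and Ddx6 were each that of 1 annotated transcript, and those of the other members were that of none.

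Levels of paralogs were compared within each library and over both groups, which is not the group difference on which the members were chosen. Lsm14a was above Lsm14b in 6 of 6 libraries, by 1.07 ± 0.35 (SD) on the log2(RPKM + 0.5) scale (exact two-sided sign-flip permutation p = 0.0312, Benjamini-Hochberg adjusted p over the 5 pairs 0.0391). The ratio of Lsm14a to Lsm14b was between 2.28 and 2.83 in controls and between 1.61 and 1.99 in cKO. That split by group restates the difference of Lsm14b on which the choice rested, and is a description only. The mean for this pair pools both groups, at 1.36 ± 0.16 in controls and 0.78 ± 0.17 in cKO (SD). Tnrc6b was below Tnrc6c in 6 of 6 libraries (−0.71 ± 0.11), Tnrc6a was above Tnrc6b in 6 of 6 (0.55 ± 0.19), and Dcp1a was above Dcp1b in 6 of 6 (0.18 ± 0.08). Each of these had the same exact permutation p of 0.0312 (adjusted 0.0391), the smallest that 6 libraries allow. Tnrc6a was below Tnrc6c in 5 of 6 libraries (−0.16 ± 0.12, exact permutation p and adjusted p = 0.0625), which did not pass. A level across genes also depends on the gene models and on how well reads map to each.

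Several members ordered the libraries alike, across the genotypes. For Ddx6, Tnrc6b and Tnrc6c, the 3 highest libraries were cKO replicate 2 and control replicates 1 and 2, and the 3 lowest were cKO replicates 3 and 4 and control replicate 3. The libraries also differed in their trend with gene length. The median log2 deviation of 2235 tested genes with models of at least 5000 bp, minus that of 2310 genes under 1500 bp, was 0.221, −0.019 and −0.225 in cKO replicates 2, 3 and 4. It was 0.032, 0.190 and −0.216 in control replicates 1, 2 and 3. The Pearson correlation of a member's log2 value with this difference over the 6 libraries was 0.91 for Ddx6, 0.85 for Tnrc6b, 0.79 for Tnrc6c, 0.62 for Dcp2 and −0.83 for Lsm14a. It was 0.14 for Lsm14b. These are descriptions over 6 points that share library and normalization. Ddx6, Tnrc6b, Tnrc6c and Dcp2 have long gene models, of 6065, 17528, 8726 and 8643 bp. Tnrc6a and Dcp1a also have long models, of 8479 and 5616 bp, and had correlations of −0.18 and −0.21. Those of Dcp1b and Edc3, with models of 3311 and 3342 bp, were −0.44 and −0.36. Lsm14a and Lsm14b have models of 2723 and 2534 bp. The part of the length trend in the member values was not tested beyond the fit that removes it, in which the difference of Lsm14b was also 0.55.

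**Figure D4:**
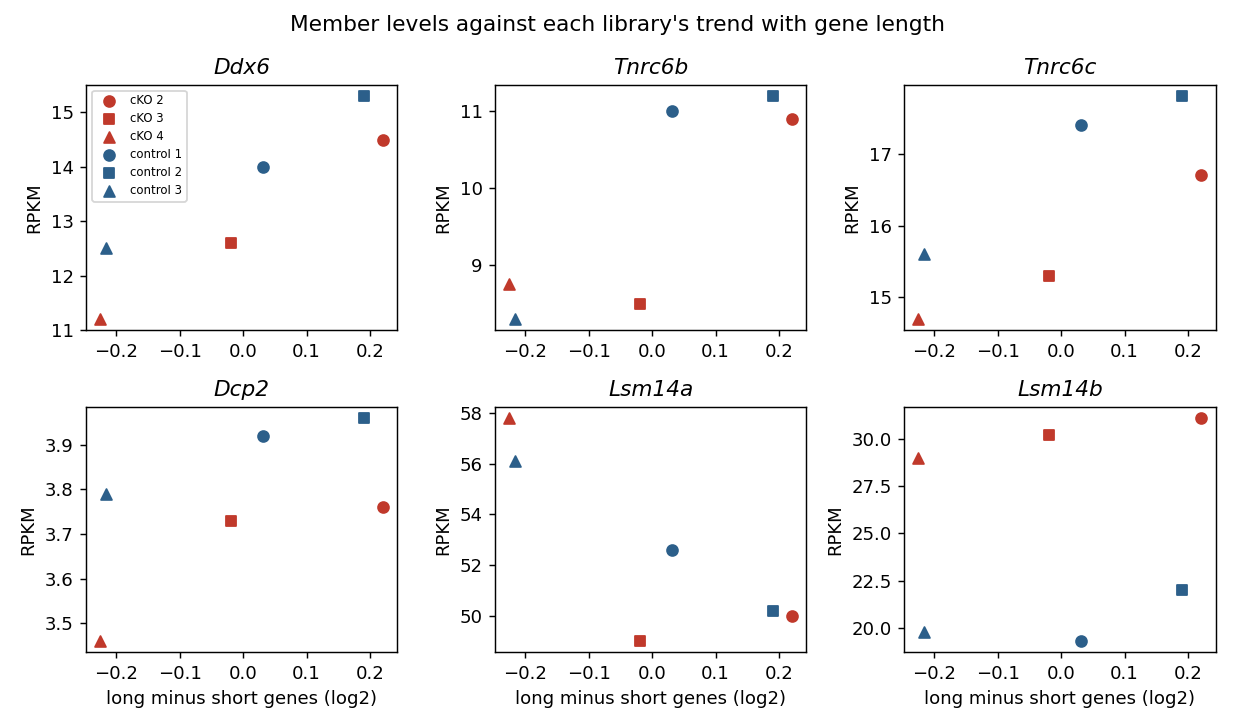
Each panel plots the RPKM of 1 gene against the length trend of the library, the median log2 deviation of long genes minus that of short genes (red, cKO; blue, control; the vertical axes do not start at 0). Ddx6, Tnrc6b and Tnrc6c are highest in the libraries to the right and Lsm14a in those to the left, while Lsm14b splits by genotype, at 29.0 RPKM and above in cKO and 22.0 RPKM and below in controls. Tnrc6a, Dcp1a, Dcp1b and Edc3 are not drawn.

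Lsm14b lies on chromosome 2 (180024987 to 180035465 in GRCm38, plus strand), and the length recovered from its values, 2534 bp, is that of 1 annotated transcript. No annotated exon of another gene overlaps its exons. The nearest tested gene after it, Psma7, a proteasome subunit gene 909 bp away on the opposite strand, was at 94.2 ± 15.0 RPKM in cKO and 95.6 ± 16.2 RPKM in controls (SD, n = 3 each). The nearest tested gene before it, 4921531C22Rik, was at 2.63 ± 0.314 and 2.73 ± 0.346 RPKM. Neither neighbour separated the groups.

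Because Dicer1 makes the microRNAs that act through these proteins, matches to microRNA seeds in the members' own messages were counted. A seed is bases 2 to 8 of the mature microRNA. Of 10 listed microRNAs found in retina or brain, miR-124-3p was not searched. The search covered the other 9: miR-183-5p (GTGCCAT), miR-96-5p (GTGCCAA), miR-182-5p (TTGCCAA), miR-204-5p (AAAGGGA), miR-9-5p (ACCAAAG), let-7a-5p (CTACCTC), miR-181a-5p (TGAATGT), miR-125b-5p (CTCAGGG) and miR-26a-5p (TACTTGA). The motif in parentheses is the reverse complement of the seed, searched on the sense strand of the longest annotated 3′ UTR in GENCODE M21. No match counts for 2 of them, though the first 3 share letters. The miR-183/96/182 cluster is abundant in photoreceptors, and its mature sequences from RefSeq (GRCm38.p6) are shown 5′ to 3′ with the seed in capitals, since their seeds are alike but not the same:
miR-183-5p: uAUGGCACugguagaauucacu
miR-96-5p: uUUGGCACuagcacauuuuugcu
miR-182-5p: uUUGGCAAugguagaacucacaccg

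The 3′ UTR of Lsm14b, 1181 bases long, held no match to any of the 9 motifs searched. Among 1578 tested genes with a 3′ UTR between 0.8 and 1.2 times that length, the median was 1 motif (quartiles 0 and 1). That of Lsm14a, 1346 bases long, held 2 motifs, those of miR-182-5p and miR-181a-5p, which 9.59% and 16.3% of the 3′ UTRs of like length hold. Ddx6 held 3 of the 9 motifs in 4250 bases, Dcp1a 3 in 3757, Dcp1b 3 in 1536, Dcp2 4 in 7240, Edc3 3 in 4004, Tnrc6a 2 in 2345 and Tnrc6c 1 in 2588. The medians for genes of like length were, in the same order, 3, 2, 1, 4, 3, 2 and 2. Dcp1b lay above its quartiles (0 and 2), and the others in this order lay within theirs. Tnrc6b held 7 of 9 in 11609 bases, where the median for its 40 genes of like length was 5 (quartiles 5 and 6). A match describes letters only, and its absence says that these letters are not in that window.

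The matches to the miR-183/96/182 cluster in Lsm14a, Ddx6, Dcp1b and Tnrc6b are shown with 8 bases on either side (GRCm38, 5′ to 3′ along the message, the 7 matching bases in capitals). Lsm14a and Ddx6 match the seed of miR-182-5p and Dcp1b that of miR-183-5p. Of the sites in Tnrc6b, in the order shown, the first matches miR-183-5p, the next miR-96-5p and the last 2 miR-182-5p. Dcp2 held 1 match to miR-183-5p, not shown, and the other 5 members held none:
Lsm14a, chr7:34345310-34345332, minus strand: atattccaTTGCCAAagaaacat
Ddx6, chr9:44638887-44638909, plus strand: gcagtctcTTGCCAAccttggac
Ddx6, chr9:44639965-44639987, plus strand: tgattttcTTGCCAAataacttt
Dcp1b, chr6:119220442-119220464, plus strand: ggctctgtGTGCCATggtgcttg
Tnrc6b, chr15:80934303-80934325, plus strand: gcgacccaGTGCCATgaccccat
Tnrc6b, chr15:80935528-80935550, plus strand: tgcatccaGTGCCAAaggtacgt
Tnrc6b, chr15:80935246-80935268, plus strand: ccatgtttTTGCCAAgttttgtc
Tnrc6b, chr15:80937839-80937861, plus strand: aggtctgaTTGCCAAgcaaattt

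In 3′ UTRs of like length the miR-182-5p motif was found in 31.4% for Ddx6, and the miR-183-5p motif in 11.7% for Dcp1b. For Tnrc6b the shares were 55.0% for miR-183-5p, 45.0% for miR-96-5p and 77.5% for miR-182-5p, and for Dcp2 40.5% for miR-183-5p.

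The partners of the members in messenger RNA decay and repression were followed in 6 lists set by function, 106 genes in all, of which 103 were tested. None was called higher or lower by limma, against 0.00794% and 0% of all tested genes, and voom on the recovered reads called none either. With limma's unadjusted p, 6 of the 103 were under 0.05, against 5.71% of all tested genes. The median log2 difference over the 103 was −0.029. The groups did not overlap for 16 of the 103 (4 above, 12 below), or 15.5%, against 11.7% of all tested genes. By list these were 1 of 13 decapping activators, 7 of 19 deadenylation genes, 3 of 26 translation repressors, 1 of 12 other Sm-like genes, 1 of 10 Argonaute and loading genes and 3 of 23 nonsense-mediated decay and exosome genes. The 1 Argonaute and loading gene was Dicer1, the gene deleted by design, which is thus also 1 of the 12 below.

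Of the 13 tested decapping activators and 5′ decay genes (2 others, Lsm5 and Patl2, were under 1 RPKM), the cKO mean was higher for 3 and lower for 10, with a median log2 difference of −0.054 (0.052 without cKO replicate 2). Lsm4, a subunit of the LSM ring that binds deadenylated messages and the most abundant of the list, was at 119 ± 15.5 RPKM in cKO and 120 ± 23.0 RPKM in controls (SD, n = 3 each). Edc4, the decapping scaffold, was at 29.8 ± 2.55 and 27.9 ± 0.890 RPKM. Lsm7, another ring subunit, was at 4.44, 4.71 and 9.18 RPKM in cKO replicates 2, 3 and 4 and at 3.41, 4.33 and 6.06 RPKM in control replicates 1, 2 and 3. Its fitted log2 difference of 0.34 ± 0.28 (SE) rested on cKO replicate 4, without which it was 0.025. Pnrc1, at 39.2 ± 0.586 and 43.1 ± 2.04 RPKM, was the gene of this list with the smallest unadjusted p (limma adjusted p = 0.945), and its cKO values all lay below the controls. Xrn1, the exonuclease that follows decapping, was at 2.29 ± 0.194 and 2.54 ± 0.122 RPKM.

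The deadenylation list split, with 10 of 19 genes higher and 9 lower in mean and a median log2 difference of 0.008. Of the 7 genes without overlap, 2 were above and 5 below. Pan2, the catalytic subunit of the PAN2-PAN3 deadenylase that TNRC6 proteins recruit, was at 22.2, 25.2 and 29.3 RPKM in cKO replicates 2, 3 and 4 and at 20.7, 20.6 and 22.0 RPKM in control replicates 1, 2 and 3. All cKO values lay above the controls, and the fitted log2 difference was 0.26 ± 0.11 (SE, limma adjusted p = 0.871). Cnot3, a CCR4-NOT subunit, was at 14.4 ± 0.453 RPKM in cKO and 12.4 ± 1.64 RPKM in controls. Nanos1, which brings CCR4-NOT to its targets, measured 4.57, 3.93 and 4.19 RPKM in cKO and 5.74, 5.92 and 5.30 RPKM in the controls (log2 difference −0.38 ± 0.09 SE, limma adjusted p = 0.554). Tob2, an adaptor between poly(A)-binding protein and the deadenylase, was the most abundant of the list at 80.5 ± 2.84 and 91.8 ± 1.23 RPKM (limma adjusted p = 0.871). For Nanos1 and Tob2 all cKO values lay below all control values.

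Of 26 tested translation repressors and partners in messenger ribonucleoprotein, 9 were higher and 17 lower in mean, with a median log2 difference of −0.041. Gigyf1, which works with the cap-binding repressor 4EHP, was at 15.0 ± 0.577 RPKM in cKO and 13.0 ± 1.73 RPKM in controls. Pabpc4, a poly(A)-binding protein gene, was at 3.49 ± 0.0970 and 3.16 ± 0.297 RPKM, and Paip2, which inhibits poly(A)-binding protein, at 71.4 ± 18.0 and 76.3 ± 11.7 RPKM. Cpeb4, which binds cytoplasmic polyadenylation elements, was at 9.23 ± 2.11 and 11.4 ± 1.22 RPKM. Caprin1, a stress granule protein gene, was at 15.5 ± 0.102 and 17.2 ± 0.842 RPKM, with every cKO value below the controls (limma adjusted p = 0.925).

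Among 12 Sm-like domain genes outside the decapping ring, the median log2 difference was −0.052 (0.10 without cKO replicate 2), with 4 higher and 8 lower. Atxn2l, an ataxin-2 relative of stress granules and P-bodies, was at 52.2, 58.2 and 59.8 RPKM in cKO replicates 2, 3 and 4 and at 49.4, 50.6 and 44.1 RPKM in control replicates 1, 2 and 3. Its groups did not overlap, and the fitted log2 difference was 0.24 ± 0.10 (SE, limma adjusted p = 0.871). Lsm12 was at 6.32 ± 0.586 and 5.86 ± 0.149 RPKM, Lsm10 at 6.08 ± 0.776 and 6.85 ± 0.986 RPKM, and the spliceosomal core genes Snrpb at 144 ± 21.3 and 143 ± 20.2 RPKM and Snrpg at 5.93 ± 1.00 and 7.59 ± 2.62 RPKM.

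The Argonaute and loading list, upstream of TNRC6, had 3 of 10 genes higher and 7 lower and a median log2 difference of −0.026. Dicer1, the gene deleted by design, is in this list and is 1 of the 7 lower. The Argonaute genes Eif2c1 and Eif2c3 were at 9.93 ± 0.488 and 1.79 ± 0.327 RPKM in cKO and at 9.45 ± 0.644 and 2.34 ± 0.339 RPKM in controls. Xpo5, the exporter of microRNA precursors, was at 9.30 ± 1.31 and 8.61 ± 0.718 RPKM, and Drosha, their nuclear processing enzyme, at 16.9 ± 0.676 and 17.4 ± 0.947 RPKM. Of 23 nonsense-mediated decay and exosome genes, 11 were higher and 12 lower, with a median of −0.002. Exosc6, an exosome core subunit, measured 5.72, 6.77 and 6.03 RPKM in cKO and 8.54, 7.65 and 8.57 RPKM in the controls, apart in every library (log2 difference −0.39 ± 0.09 SE, limma adjusted p = 0.558). Smg1, the kinase of nonsense-mediated decay, was at 5.03 ± 0.473 and 6.14 ± 0.610 RPKM, the helicase Upf1 at 26.1 ± 1.32 and 24.2 ± 3.96 RPKM, Upf3a at 32.5 ± 6.82 and 32.0 ± 5.13 RPKM, and the exosome helicase Skiv2l at 25.3 ± 0.982 and 23.5 ± 0.465 RPKM.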

How the data were processed

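The authors deposited 1 table of RPKM values per gene and library. The submitters' processing notes name GSNAP, HTSeq and mm9. Versions, annotation, length model and the treatment of multiply matching reads were not given in the sources used here. Per the labels' protocols, first strands were primed at random and the second strand was made without a strand mark. Every sample column was used. The listed amacrine markers Tfap2a and Tfap2b were not analysed here. Reads were worked back from the RPKM values, whose steps are whole reads over the gene length, for 100% of the 12599 tested genes; the scale was set with 540 genes that have a single annotated transcript in GENCODE M21. The read step and the test were tested on simulated data.

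Values were tested as log2(RPKM + 0.5) with limma 3.58.1 in R 4.3.3 (variance trend, no covariate, all 6 libraries) for the genes that averaged 1 RPKM or more, with two-sided p-values adjusted by Benjamini-Hochberg over all tested genes (threshold 0.05). Paralog levels were compared by exact sign-flip permutation over the 6 libraries. Fold changes on this scale understate those of low genes. The members, lists and tests were chosen with earlier results of these data known. The text names all members, and of each list the most abundant gene and the 2 genes with the smallest p in each direction. It also names the 5 genes with the highest and the 2 with the lowest correlation with Lsm14b. Alternatives were other pseudocounts (0.1 and 1), filters (none and 5 RPKM), scalings, voom on reads, the replicate number as a block, each library left out and, chosen after seeing the data, removal of each library's trend with gene length. GENCODE M21 positions (GRCm38) serve only to place genes. Of the tested genes, 11043 (87.6%) had an annotated 3′ UTR.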

Additional observations from a re-analysis of the deposited data

How the results depend on the processing

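The fitted difference of Lsm14b lay between 0.52 and 0.61 over 17 alternatives. The replicate block pairs only replicates 2 and 3, which share a number (correlations of their deviations 0.47 and −0.05), and leaves 1 residual degree of freedom. It called 181 genes, 80 higher and 101 lower, where the fit without it called 1, and its calls held 1 member, Lsm14b (a description, since the members were chosen on this contrast, and 0 members without the block), and 1 list gene, Naa38 (the older symbol of Lsm8). Over all genes, 2 were called with the 5 RPKM filter, without a variance trend and by voom with median-of-ratios scaling, and 3 with no filter, with median centring, with the length trend removed and by voom scaled to totals. Median log2 differences moved by more than the spread between libraries with the length trend removed (0.002 for the members, −0.028 without Lsm14b) and under the block (−0.096 for deadenylation, −0.166 for nonsense-mediated decay and exosome). Single libraries also moved medians by more than that spread. Among these were deadenylation (−0.069 without cKO replicate 4, −0.075 without control replicate 2) and the Argonaute list (0.006 without cKO replicate 2, −0.078 without control replicate 2). Leaving out 1 library at a time, the medians ran from −0.044 to −0.021 for the members, −0.113 to 0.052 for decapping activators, −0.075 to 0.048 for deadenylation, −0.049 to −0.018 for translation repressors, −0.139 to 0.10 for other Sm-like genes, −0.078 to 0.006 for the Argonaute list and −0.148 to 0.073 for nonsense-mediated decay and exosome. Of these only the medians of the members and translation repressors kept their sign throughout. With 5 libraries the paralog test cannot go below 0.0625. Leaving out 1 library gave level differences from 0.987 to 1.147 for Lsm14a over Lsm14b, 0.165 to 0.203 for Dcp1a over Dcp1b, 0.508 to 0.593 for Tnrc6a over Tnrc6b and −0.737 to −0.681 for Tnrc6b over Tnrc6c. The sign of some list genes turned. Under the block it did so for Edc4 (−0.003), Lsm7 (−0.150), Snrpb (−0.094) and Upf3a (−0.200). It turned under quantile normalization for Snrpb (−0.044) and Upf3a (−0.013), by voom scaled to totals for the same genes (−0.021 and −0.029), and for Lsm4 with the length trend removed (0.020). Leaving out 1 library gave −0.088 to 0.146 for Lsm4, −0.305 to 0.039 for Paip2, −0.108 to 0.107 for Snrpb, −0.022 to 0.196 for Upf1 and −0.152 to 0.137 for Upf3a. The cause of these shifts was not tested. Depth limits the low genes most: among the members, Dcp1b rested on 311 reads in cKO replicate 4. Named list genes rested on fewer, such as Snrpg on 39 reads in cKO replicate 4 and Lsm7 on 51 in cKO replicate 2.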

Other observations

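The tested genes whose log2(RPKM + 0.5) profile over the 6 libraries was most like that of Lsm14b were C2cd2l, Slc4a3, Slc44a1, Scarb1 and Ppp1r16a, with Pearson correlations of 0.997, 0.994, 0.994, 0.991 and 0.989. C2cd2l, a lipid transfer protein gene of membrane contact sites, was at 190, 189 and 176 RPKM in cKO replicates 2, 3 and 4 and at 133, 146 and 134 RPKM in control replicates 1, 2 and 3. Slc44a1, a choline transporter, was at 21.6 ± 0.297 RPKM in cKO and 17.3 ± 0.523 RPKM in controls (SD, n = 3 each). Scarb1, a lipoprotein receptor, was at 63.8 ± 1.51 and 51.3 ± 3.09 RPKM, and Slc4a3, an anion exchanger, at 39.1 ± 0.958 and 32.3 ± 0.905 RPKM. The 2 profiles most opposed to it were those of Ptrh2 (−0.995), a peptidyl-tRNA hydrolase gene, at 3.72 ± 0.0996 and 4.46 ± 0.0967 RPKM, and Ier2 (−0.994), an immediate early gene, at 17.4 ± 0.729 and 23.1 ± 1.48 RPKM. With 6 libraries, 46 of the other 12598 tested genes had a correlation with Lsm14b above 0.95. These correlations describe the genes that split the same libraries, and none of the 7 genes passed the adjusted threshold in limma.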
